A study of Mus musculus with 30 samples.

Results

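The genes described here are 7 that mark or build the podocyte, Nphs1, Cd2ap, Ptpro, Podxl, Synpo, Plce1 and Wt1, together with Vegfa, in the kidneys of mice with and without the epidermal growth factor receptor (EGFR) in vascular smooth muscle. They were chosen by name and found by gene symbol, 8 of the 41128 genes in the kidney count file, and all 8 passed the filter on low counts. mRNA was sequenced from 16 kidneys, 4 mice in each of 4 groups: WT-SFD and KO-SFD mice on a standard fat diet and WT-HFD and KO-HFD mice on a high fat diet. All mice were male and carried a tamoxifen-inducible Cre recombinase driven by the smooth muscle promoter Smmhc on the Y chromosome. The labels give the strain background as C57Bl6J, and the parents were Egfr flox/flox mice on C57BL/6 and Cre mice on C57BL/6N. KO mice had loxP sites on both Egfr alleles and WT mice had none, and both genotypes received 1 mg tamoxifen a day for 5 days. Feeding began 7 days later, at 6 weeks of age, and lasted 18 weeks. The Cre is active in smooth muscle, and podocytes and tubule cells are not its targets. The total count per kidney library ran from 16354880 to 28331314, with a median of 19544128, and the lowest total in each group was 16354880 in WT-SFD, 17616939 in WT-HFD, 18327872 in KO-SFD and 17487556 in KO-HFD.

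Podocytes are the epithelial cells that wrap the capillaries of the glomerulus. Their foot processes interlock, and the gaps between them are bridged by the slit diaphragm, a protein sheet that holds back albumin and is anchored to an actin cytoskeleton inside the cell. Podocytes also secrete vascular endothelial growth factor A, the product of Vegfa, which maintains the fenestrated endothelium on the other side of the basement membrane, and tubule cells make it too. Loss of podocytes and of slit diaphragm proteins is a known feature of diabetic and obesity-related kidney disease. The comparisons ask how diet, genotype and the 2 together moved these mRNAs in whole kidney.

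RefSeq's promoter table for GRCm38.p6 held 5 of the 8 genes, Nphs1, Plce1, Cd2ap, Ptpro and Vegfa, with 6 start sites. The 250 bases before the start are printed for Nphs1 and Ptpro, which varied together between mice, for Vegfa, and for Cd2ap, whose correlations with the other genes did not pass the test. Each runs 5′ to 3′ on the strand of its gene, and capitals mark matches, on either strand, to GGGCGG (the GC box), ACGTG or GCGTG (the core of the hypoxia response element) or GTGGGAG (letters from the centre of the motif described for the transcription factor WT1). TATAAA was searched for as well. The Nphs1 window lay on the + strand at chr7:30459808-30460057, the Ptpro window on the + strand at chr6:137252049-137252298, the Vegfa window on the - strand at chr17:46032378-46032627 and the Cd2ap window on the - strand at chr17:42876425-42876674.
Nphs1: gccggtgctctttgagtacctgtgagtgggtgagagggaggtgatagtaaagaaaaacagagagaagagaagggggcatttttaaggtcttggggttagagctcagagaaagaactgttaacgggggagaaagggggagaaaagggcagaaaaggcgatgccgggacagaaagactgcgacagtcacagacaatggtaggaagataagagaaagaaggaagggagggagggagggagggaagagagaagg
Ptpro: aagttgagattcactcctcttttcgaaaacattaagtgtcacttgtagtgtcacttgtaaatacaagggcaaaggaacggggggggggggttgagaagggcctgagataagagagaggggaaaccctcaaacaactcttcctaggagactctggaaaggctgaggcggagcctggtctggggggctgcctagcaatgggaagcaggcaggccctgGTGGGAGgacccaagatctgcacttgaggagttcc
Vegfa: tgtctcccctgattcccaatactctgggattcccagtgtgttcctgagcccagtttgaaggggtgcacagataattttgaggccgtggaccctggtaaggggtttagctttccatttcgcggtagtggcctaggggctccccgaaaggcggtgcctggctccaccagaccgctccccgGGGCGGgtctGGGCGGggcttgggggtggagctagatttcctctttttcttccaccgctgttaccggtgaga
Cd2ap: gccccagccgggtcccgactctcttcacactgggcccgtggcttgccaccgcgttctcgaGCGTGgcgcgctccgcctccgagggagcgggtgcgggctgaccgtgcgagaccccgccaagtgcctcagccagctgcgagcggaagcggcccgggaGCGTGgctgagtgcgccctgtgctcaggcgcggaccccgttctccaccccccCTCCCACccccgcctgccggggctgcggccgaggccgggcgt

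The Nphs1 window held 0 of these motifs. The Ptpro window held 1 GTGGGAG, the printed Vegfa window 2 GGGCGG, and the Cd2ap window 2 GCGTG and 1 GTGGGAG. The window before the other Vegfa start site, inside the gene, held 1 GGGCGG, 1 ACGTG and 1 GCGTG, and that of Plce1 held 0 motifs. Of the 32851 promoters of the same length in the table, 32.7% held GGGCGG, 16.6% ACGTG, 28.2% GCGTG, 8.25% GTGGGAG and 12.4% TATAAA. The share of G and C was 50.8% for Nphs1, 53.6% for Ptpro, 59.2% for Vegfa and 76.4% for Cd2ap, where the middle of the table's promoters ran between quartiles of 45.2% and 61.2%. A match is a run of letters, and binding was not measured. The printed RefSeq starts of Nphs1 and Cd2ap lie inside the spans that GENCODE gives these genes.

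Egfr, the targeted gene, was read first as a check of the labels. In WT-SFD its level was 58.4, 39.1, 50.9 and 53.0 FPM, and in KO-SFD 52.7, 46.7, 60.8 and 54.0 FPM, where FPM is edgeR's CPM, a gene's count relative to the library total after TMM scaling. Values of a group are given in the order of replicates 1 to 4 here and throughout. On HFD it stood at 47.5, 36.9, 56.6 and 42.7 FPM in WT and at 42.9, 45.5, 40.5 and 43.5 FPM in KO. WT and KO kidneys overlapped on both diets, with a log2 fold change in KO of 0.09 ± 0.13 (SE) on SFD and -0.09 ± 0.13 on HFD (edgeR adjusted p = 0.848 and 1.0). The counts cover Egfr of all cells of the kidney, most of which the Cre does not reach. They did not separate the genotypes, so that the kidney labels were not borne out here. In aortae, sequenced at another site from mice of the same 4 groups (3 of the mice gave both tissues), Egfr stood between 39.5 and 65.1 FPM in the 7 WT and between 26.8 and 40.6 FPM in the 7 KO libraries, and on either diet the highest KO value lay under the lowest WT value.

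Levels of different genes were compared as FPM per kilobase of exon (GENCODE vM21). Vegfa was the most abundant of the 8, at 57.9 to 115 FPM per kilobase over the 16 kidneys, with a median of 95.2. Podxl followed with a median of 22.7, then Synpo at 6.40, Cd2ap at 4.75, Nphs1 at 3.20, Wt1 at 1.37, Ptpro at 1.25 and Plce1 at 0.263 FPM per kilobase. Most neighbours in this order kept their places in all 16 kidneys. Synpo lay above Cd2ap in 13 of 16 and Cd2ap above Nphs1 in 15 of 16, and Wt1 and Ptpro could not be ordered, with Wt1 higher in 10 of 16. Plce1 rested on 1389 counts over all 16 kidneys and Vegfa on 129689.

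**Figure D1:**
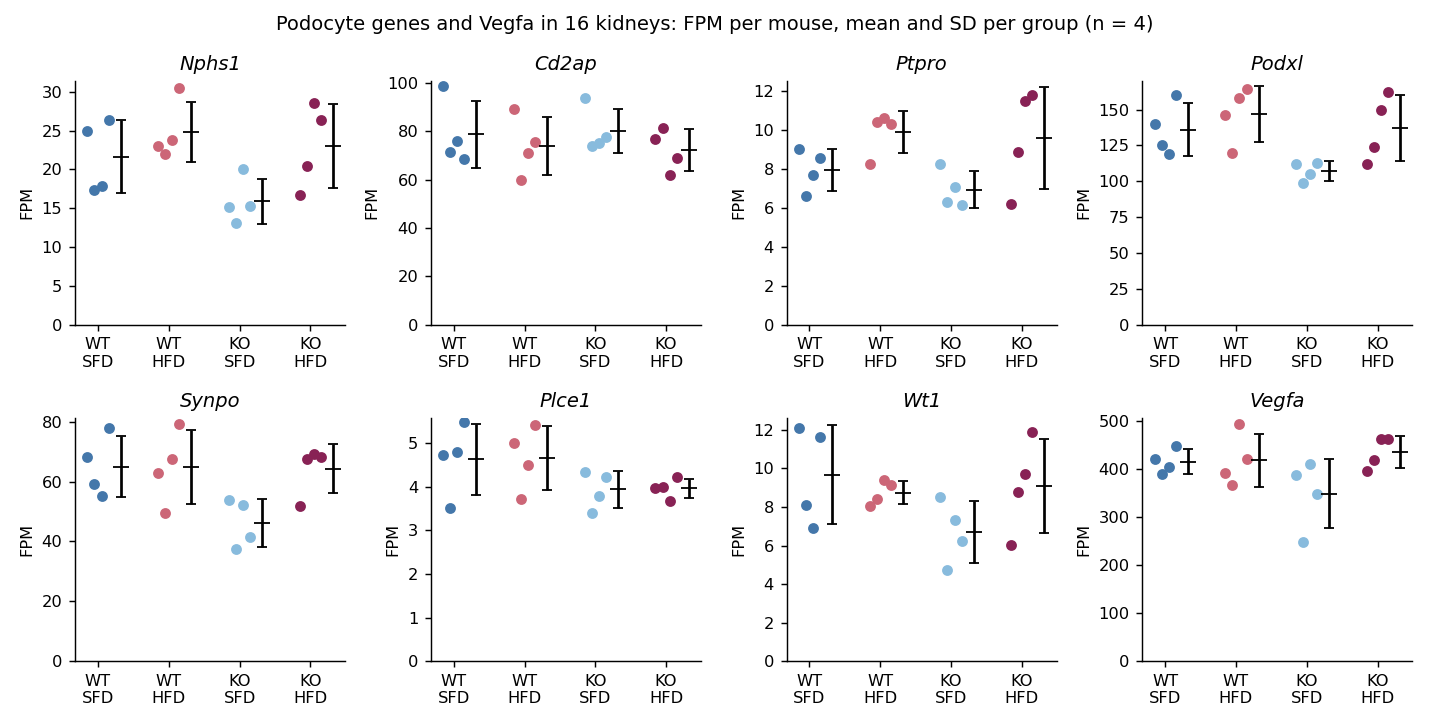
Level of each of the 8 genes in FPM (vertical axes, each from 0) in every kidney, by group on the horizontal axis. Each point is 1 mouse in the order of the text, and the bar beside the points is the group mean with its SD (n = 4). For Synpo and Podxl all 4 KO-SFD points lie below all 4 WT-SFD points.

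Nephrin, the product of Nphs1 (ENSMUSG00000006649, chromosome 7, 30458315 to 30487223), is the transmembrane protein that spans the slit diaphragm. Nphs1 stood at 25.0, 17.4, 17.8 and 26.4 FPM in WT-SFD and at 23.0, 22.0, 23.8 and 30.5 FPM in WT-HFD. In KO mice it stood at 15.2, 13.1, 20.0 and 15.3 FPM on SFD and at 16.7, 20.4, 28.6 and 26.4 FPM on HFD. KO-SFD held the 3 lowest values of the 16, and replicate 1 of KO-HFD lay inside the KO-SFD range. In a whole kidney, fewer podocytes, less mRNA per podocyte and another mix of cells in the tissue piece cannot be told apart. This holds for the genes below as well. Where other cells also make the mRNA, a change in those cells cannot be told apart either. The group means were 21.7 ± 4.75 (SD, n = 4) in WT-SFD, 24.8 ± 3.88 in WT-HFD, 15.9 ± 2.89 in KO-SFD and 23.0 ± 5.47 FPM in KO-HFD. The log2 fold change between diets was 0.20 ± 0.19 (SE) in WT and 0.53 ± 0.19 in KO mice, with edgeR adjusted p values of 0.935 and 0.177, and KO against WT on SFD gave -0.44 ± 0.19 (edgeR adjusted p = 0.573). An antisense gene, Nphs1os, overlaps Nphs1, and it held 14 counts over the 16 kidneys against 6822 for Nphs1.

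Cd2ap (ENSMUSG00000061665, chromosome 17, 42792951 to 42876665) encodes an adaptor that ties the slit diaphragm to actin and is made in many other cells as well. It stood at 98.8, 71.5, 76.1 and 68.4 FPM in WT-SFD, at 89.3, 59.9, 71.1 and 75.4 in WT-HFD, at 93.8, 74.0, 75.3 and 77.5 in KO-SFD and at 76.9, 81.2, 61.8 and 68.9 FPM in KO-HFD. The 4 groups overlapped throughout. Its log2 fold change was -0.09 ± 0.14 (SE) for HFD in WT, -0.15 ± 0.14 for HFD in KO and 0.03 ± 0.14 for KO against WT on SFD (edgeR adjusted p = 0.978, 0.633 and 0.961). Of the 8 genes it was the only one below 0 for HFD in KO mice.

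Ptpro (ENSMUSG00000030223, chromosome 6, 137252319 to 137463233) encodes a receptor-type tyrosine phosphatase of the podocyte surface. Its values were 9.05, 6.60, 7.67 and 8.56 FPM in WT-SFD and 8.28, 10.4, 10.6 and 10.3 FPM in WT-HFD, followed by 8.25, 6.31, 7.06 and 6.17 FPM in KO-SFD and 6.18, 8.87, 11.5 and 11.8 FPM in KO-HFD. In each genotype 3 of 4 HFD kidneys lay above all SFD kidneys of that genotype, and replicate 1 of KO-HFD was again the exception in KO. The log2 fold change for HFD was 0.31 ± 0.18 (SE) in WT and 0.46 ± 0.18 in KO (edgeR adjusted p = 0.785 and 0.228). Averaged over genotypes it was 0.39 ± 0.13, the smallest adjusted p of any of the 8 genes in any comparison (edgeR, 0.107). Without that kidney, Ptpro passed the limit of 0.05 for HFD in KO (0.62 ± 0.16, edgeR adjusted p = 0.0468) and averaged over genotypes (0.47 ± 0.11, edgeR adjusted p = 0.0186). Without it, edgeR called 403 of 15231 genes in place of 346 of 15034 for HFD in KO, and 721 in place of 674 averaged over genotypes.

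Podxl (ENSMUSG00000025608, chromosome 6, 31519488 to 31563981) encodes podocalyxin, the negatively charged sialomucin that keeps foot processes apart, which endothelium also carries. It stood at 140, 125, 119 and 160 FPM in WT-SFD and at 146, 120, 158 and 164 FPM in WT-HFD. In KO it stood at 112, 98.5, 105 and 113 FPM on SFD and at 112, 124, 150 and 162 FPM on HFD. All KO-SFD kidneys lay below all WT-SFD kidneys, with means of 107 ± 6.79 and 136 ± 18.4 FPM (SD, n = 4). The log2 fold change was -0.34 ± 0.13 (SE) for KO against WT on SFD, 0.35 ± 0.13 for HFD in KO and 0.11 ± 0.13 for HFD in WT (edgeR adjusted p = 0.533, 0.193 and 0.963).

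Synpo (ENSMUSG00000043079, chromosome 18, 60593973 to 60660142) encodes synaptopodin, an actin-binding protein of foot processes that smooth muscle also makes. It stood at 68.1, 59.1, 55.1 and 77.7 FPM in WT-SFD and at 63.0, 49.5, 67.6 and 79.2 FPM in WT-HFD. In KO it stood at 53.7, 37.5, 52.2 and 41.5 FPM on SFD and at 52.0, 67.4, 69.3 and 68.2 FPM on HFD. All KO-SFD kidneys lay below all WT-SFD kidneys, and 3 of 4 KO-HFD kidneys lay above all KO-SFD kidneys. KO against WT on SFD gave a log2 fold change of -0.49 ± 0.16 (SE), and HFD gave 0.47 ± 0.16 in KO against -0.00 ± 0.16 in WT (edgeR adjusted p = 0.464, 0.141 and 1.0). The difference between these diet effects was 0.48 ± 0.22, with a 95% confidence interval from 0.01 to 0.94 (edgeR adjusted p = 1.0).

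Plce1 (ENSMUSG00000024998, chromosome 19, 38481109 to 38785030) encodes phospholipase C epsilon, a signalling enzyme needed for podocyte maturation. Its values ran from 3.52 to 5.47 FPM in WT-SFD, from 3.72 to 5.40 in WT-HFD, from 3.40 to 4.34 in KO-SFD and from 3.67 to 4.22 FPM in KO-HFD. The log2 fold change for HFD was 0.01 ± 0.16 (SE) in either genotype, and KO against WT gave -0.24 ± 0.16 on SFD and -0.23 ± 0.16 on HFD (edgeR adjusted p = 0.675 and 1.0). The interval for HFD in KO, from -0.33 to 0.35, still holds a change of the size fitted for Ptpro in WT.

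Wt1 (ENSMUSG00000016458, chromosome 2, 105126529 to 105173616) encodes the transcription factor that maintains podocyte identity and binds at many podocyte genes. It stood at 12.1, 8.10, 6.89 and 11.6 FPM in WT-SFD and at 8.05, 8.42, 9.38 and 9.13 FPM in WT-HFD. In KO it stood at 8.53, 4.74, 7.31 and 6.23 FPM on SFD and at 6.02, 8.78, 9.69 and 11.9 FPM on HFD. The WT-SFD mice alone spread from 6.89 to 12.1 FPM, and the KO-SFD range reached into theirs. The log2 fold change was -0.53 ± 0.22 (SE) for KO against WT on SFD and 0.44 ± 0.22 for HFD in KO, against -0.14 ± 0.22 for HFD in WT (edgeR adjusted p = 0.573, 0.355 and 0.977).

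Vegfa (ENSMUSG00000023951, chromosome 17, 46016993 to 46032369) encodes the growth factor itself. It stood at 421, 390, 404 and 449 FPM in WT-SFD and at 393, 367, 495 and 422 FPM in WT-HFD. In KO it stood at 388, 248, 412 and 349 FPM on SFD and at 397, 419, 463 and 464 FPM on HFD. The 248 FPM of KO-SFD replicate 2 was the lowest value of the 16, and of the other KO-SFD kidneys 1 lay within the WT-SFD range and 2 below it. The log2 fold change was 0.32 ± 0.14 (SE) for HFD in KO, 0.01 ± 0.14 for HFD in WT and -0.25 ± 0.14 for KO against WT on SFD (edgeR adjusted p = 0.269, 1.0 and 0.631). Without that replicate the first and the last of these were 0.19 and -0.12.

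Across the genes, 0 of 8 passed an adjusted p of 0.05 for HFD against SFD in WT kidneys, where edgeR's quasi-likelihood test called 0.911% of the 15034 genes tested. No gene of the 8 had an unadjusted p under 0.05 either, against 7.90% of all genes, and for 0 of 8 did the diet groups separate, against 5.01%. Their median log2 fold change was 0.01, beside -0.00 for all genes. The largest value was the 0.31 of Ptpro. With 1 library left out at a time, Nphs1 ran from 0.08 to 0.31 here (0.31 without WT-SFD replicate 4), Podxl from 0.05 to 0.21 and Wt1 from -0.28 to -0.02.

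In KO kidneys 0 of 8 passed the adjusted limit for HFD against SFD, where 2.30% of all genes were called. An unadjusted p under 0.05 was found for 5 of 8, namely Nphs1, Ptpro, Podxl, Synpo and Vegfa, all higher on HFD, against 15.8% of all genes in either direction and 8.71% higher. The 5 log2 fold changes ran from 0.32 to 0.53, and 7 of 8 values were above 0, with a median of 0.40 beside -0.00 for all genes. For 0 of 8 genes did the KO-HFD and KO-SFD kidneys separate, where 8.87% of all genes did. Replicate 1 was the lowest or next to lowest KO-HFD kidney for 7 of the 8 genes.

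KO against WT on SFD gave 0 of 8 genes past the adjusted limit, with 0.0133% of all genes called. An unadjusted p under 0.05 was found for Nphs1, Podxl, Synpo and Wt1, all lower in KO, against 8.37% of all genes in either direction and 4.09% lower. The groups separated for Podxl and Synpo, where 3.98% of all genes separated in either direction and 2.09% with KO lower. The median log2 fold change of the 8 genes was -0.30, beside 0.00 for all genes. This comparison and that of the diets in KO share the 4 KO-SFD kidneys, so that a low KO-SFD value enters both, with opposite signs. Replicate 2 of KO-SFD was the lowest of all 16 kidneys for 6 of the 8 genes. Without it, 2 of 8 genes had an unadjusted p under 0.05 here, with a median log2 fold change of -0.24. For HFD in KO 3 of 8 did, with a median of 0.31. The share of all genes at an unadjusted p under 0.05 was not counted without that kidney. Whether other genes lost as much was therefore not tested. Of all genes, 0 of 15210 then passed the adjusted limit here, in place of 2 of 15034. For HFD in KO 196 of 15210 passed it, in place of 346 of 15034. Without replicate 1 of KO-HFD the median of the 8 genes for HFD in KO was 0.50. With 1 library left out at a time, Wt1 ran from 0.28 to 0.59 for HFD in KO, and Plce1 ran from -0.34 to -0.15 for KO against WT on SFD.

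For KO against WT on HFD, 0 of 8 passed the adjusted limit (0.00665% of all genes did), 0 of 8 had an unadjusted p under 0.05 (1.65%) and 0 of 8 separated (1.32%). The log2 fold changes ran from -0.23 for Plce1 to 0.06 for Wt1. The interaction, the diet effect in KO minus that in WT, gave 0 of 8 at the adjusted limit, as it did for all genes (0% called). Synpo alone had an unadjusted p under 0.05, against 3.23% of all genes and 1.64% with a higher effect in KO, and 7 of 8 values were above 0. The count of 1 was 0 without KO-SFD replicate 2 and 2 without KO-HFD replicate 1. Of all genes, 0 of 15210 and 0 of 15231 passed the adjusted limit in these fits. Their share at an unadjusted p under 0.05 was not counted there, so that the counts have no background at the same limit. The interval for Nphs1, from -0.23 to 0.89, and that for Vegfa, from -0.10 to 0.72, hold both no difference and a large difference between the genotypes.

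Averaged over genotypes, HFD gave 0 of 8 genes past the adjusted limit, with 4.48% of all genes called. Nphs1, Ptpro, Podxl and Synpo had an unadjusted p under 0.05, all higher on HFD, against 17.9% of all genes and 9.72% higher. Averaged over diets, KO gave 0 of 8 (0.0133% of all genes called), and Podxl and Synpo were lower at an unadjusted p under 0.05, against 5.69% of all genes and 2.65% lower. That count was 1 without KO-SFD replicate 2 and 0 without KO-HFD replicate 1. Of all genes, 1 of 15210 and 3 of 15231 passed the adjusted limit in these fits. Here too the unadjusted share of all genes was not counted. With all 16 kidneys, all 8 values for KO averaged over diets were below 0, with a median of -0.23. DESeq2 called 0 of 8 in each of the 7 comparisons too, and edgeR's exact test 0 of 8 in each of the 4 comparisons of 2 groups. Over all 15034 genes DESeq2 called more than the quasi-likelihood test, 695 against 346 for HFD in KO and 1101 against 674 averaged over genotypes, and the exact test called 574 for HFD in KO.

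**Figure D2:**
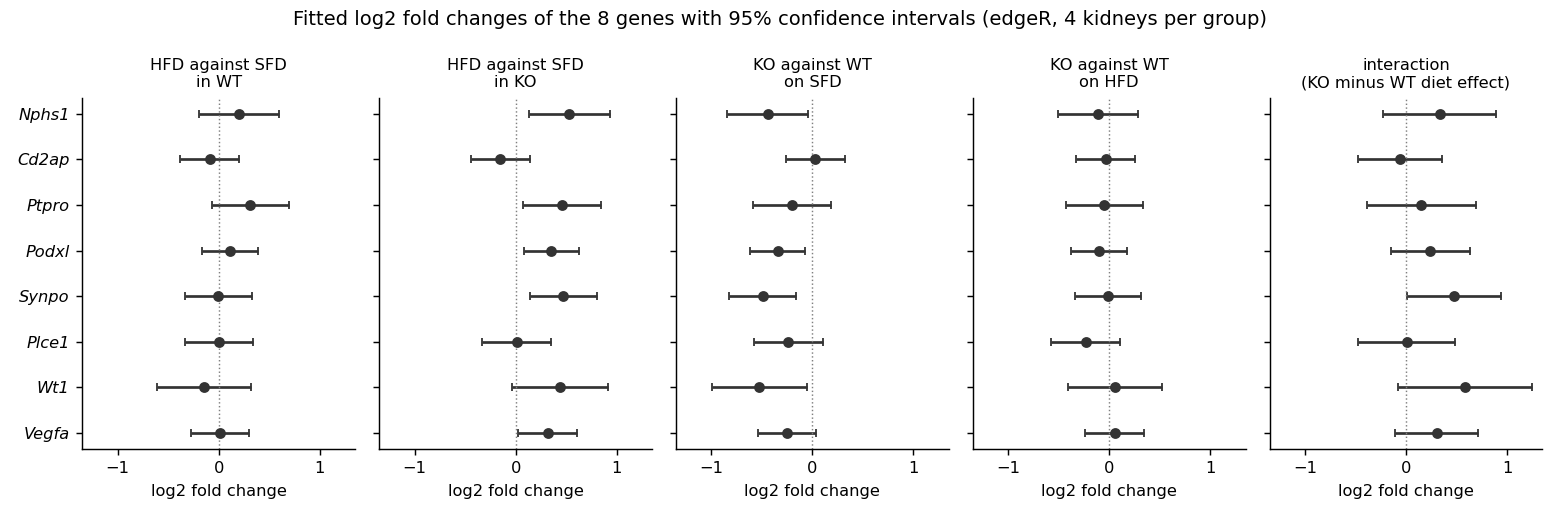
Log2 fold changes of the 8 genes (horizontal axes) in 5 comparisons, with points for edgeR's fitted value and bars for the 95% confidence interval. 5 intervals lie above 0 for HFD in KO and 4 below 0 for KO against WT on SFD, none lies off 0 for HFD in WT or KO against WT on HFD, and Synpo lies just off 0 for the interaction.

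To see which genes vary together, they were set beside each other in each mouse, with the mean of the mouse's group subtracted from the log2 value. Nphs1, Ptpro, Podxl, Synpo and Wt1 varied together: all 5 lay above the group mean in WT-SFD replicates 1 and 4, WT-HFD replicate 4 and KO-HFD replicates 3 and 4, and all 5 lay below it in WT-SFD replicates 2 and 3, KO-SFD replicate 2 and KO-HFD replicate 1. Pearson's r between these 5 genes ran from 0.58 to 0.82 over the 10 pairs. For Nphs1 and Synpo it was 0.80 (Spearman's rho 0.79, permutation p = 0.00028 and 0.00018, adjusted over 28 pairs 0.004 and 0.003), and without the 2 kidneys farthest from the median of Nphs1 it was 0.79. Of the 10 pairs 9 passed an adjusted permutation p of 0.05, and Ptpro with Podxl did not (r = 0.64, adjusted permutation p = 0.057). These 5 genes were set as the podocyte markers with earlier results of these data known, and of all 28 pairs 15 passed. Over the 10 pairs r ran from 0.46, for Ptpro with Synpo, to 0.86 without the 2 farthest kidneys. Among the 15033 other genes the remaining 4 held places 43 to 138 in likeness to Nphs1, but Synpo held place 397 in likeness to Ptpro and Ptpro place 1079 in likeness to Synpo.

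Vegfa followed the 5 genes with r from 0.51 to 0.73, highest with Synpo (rho 0.76, permutation p = 0.002 and 0.003, adjusted over 28 pairs 0.007 and 0.01, r = 0.70 without the 2 farthest kidneys). Among all 15033 other genes Synpo held place 683 in likeness to Vegfa, Wt1 place 926, Nphs1 1644, Podxl 1842 and Ptpro 2592, so that many genes followed Vegfa more closely than these did. Plce1 gave r from 0.21 to 0.61 with the other genes apart from Cd2ap. Cd2ap gave r from -0.15 to 0.45, and 0 of its 7 pairs passed an adjusted permutation p of 0.05. Of all 28 pairs 15 passed by Pearson's r and 14 by Spearman's rho. All genes of a mouse come from a single library and share its depth and its tissue piece, so that the correlations describe these libraries.

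The 5 genes most like Nphs1 over the 16 kidneys were Klhl42, a substrate adaptor of a ubiquitin ligase (r = 0.95), Lrpprc, which stabilises mitochondrial mRNA (0.93), the non-coding X4933431E20Rik (0.92), Iars2, the mitochondrial isoleucyl-tRNA synthetase (0.92), and the copper transporter Slc31a1 (0.89). Those most like Vegfa were Ppp4r1 (0.95), Dgkh (0.95), Tex2 (0.94), Lmtk2 (0.94) and Inadl (0.93), which encode a phosphatase subunit, a diacylglycerol kinase, a lipid-binding protein, a kinase and a polarity protein. They are the highest of 15033 values of r each, with no test.

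**Figure D3:**
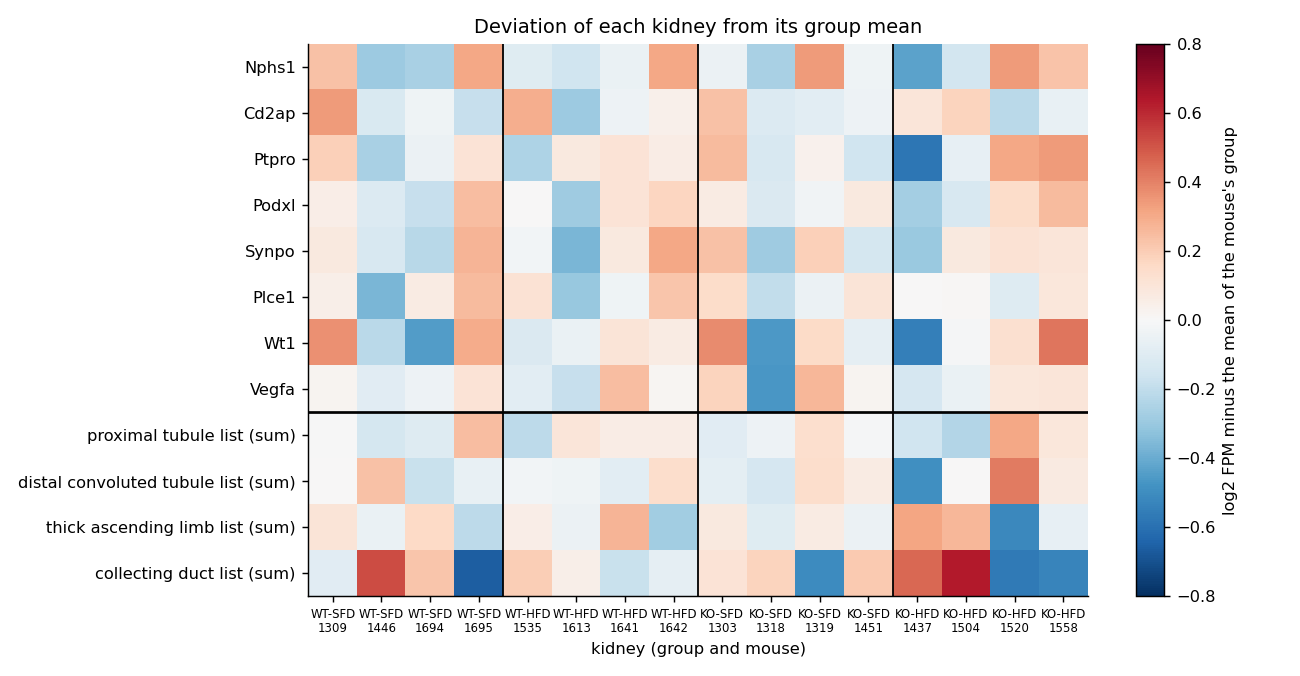
Log2 level of each gene, and of the summed genes of 4 tubule lists, in each of 16 kidneys minus the mean of that kidney's group (colour scale, red above and blue below). Columns are mice, by group and in the order of replicates 1 to 4. Nphs1, Ptpro, Podxl, Synpo and Wt1 are mostly of the same colour within a mouse, Cd2ap is not, and the collecting duct row is mostly of the opposite colour.

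The genes were also set beside the tubule segments of the same kidney. The collecting duct list (8 of 9 genes tested, Hsd11b2 in a stretch of chromosome 8 where no gene had a count) was led by the water channel Aqp2, which gave 51.2% to 75.1% of its sum. Its sum was 1320, 2020, 1640 and 889 FPM in WT-SFD, 1240, 1120, 958 and 1030 in WT-HFD, 1770, 1860, 1160 and 1900 in KO-SFD and 1610, 1820, 794 and 814 FPM in KO-HFD. Within groups Nphs1 was lower where this sum was higher, with r = -0.85 (rho = -0.81, permutation p = 0.003 and 0.006, r = -0.79 without the 2 farthest kidneys). Adjusted over the 40 relations of 8 genes with 5 lists these were 0.101 and 0.073, and 0 of the 40 passed. For Podxl r was -0.70, for Vegfa -0.55 and for Cd2ap 0.38.

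With the mean log2 level of the collecting duct list as a covariate, added after the values had been seen, the log2 fold change for HFD in KO was 0.25 ± 0.15 for Nphs1 in place of 0.53, 0.23 ± 0.17 for Ptpro in place of 0.46 and 0.19 ± 0.12 for Podxl in place of 0.35 (edgeR adjusted p = 0.423, 0.510 and 0.438). For Synpo it was 0.34 ± 0.16 and for Vegfa 0.23 ± 0.15. With the covariate 1 of 8 genes had an unadjusted p under 0.05 for HFD in KO, in place of 5, and 0 of 8 averaged over genotypes, in place of 4, where Nphs1 gave 0.18 in place of 0.36. For KO against WT on SFD the count was 2 in place of 4, with 8.53% of all genes in place of 8.37%. For the interaction it was 0 in place of 1, with 3.59% of all genes in place of 3.23%. For KO against WT averaged over diets it was 3 in place of 2, with 6.1% of all genes in place of 5.69%. Over all genes the share with an unadjusted p under 0.05 was 16.2% with the covariate in place of 15.8% for HFD in KO, and 20% in place of 17.9% averaged over genotypes, with 305 and 748 genes called in place of 346 and 674. For KO against WT on SFD the covariate left -0.41 ± 0.15 for Synpo, -0.25 ± 0.11 for Podxl and -0.29 ± 0.14 for Nphs1 (edgeR adjusted p = 0.532, 0.582 and 0.595). The collecting duct list itself had a median log2 fold change of -0.39 for HFD in WT and -0.23 in KO. In each, 7 of its 8 genes were below 0 and 1 above, and 0 were called. A covariate that moves with diet can take up part of a diet effect, which was not tested. How much medulla each tissue piece held was not measured, and its part in these values was not tested further.

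**Figure D4:**
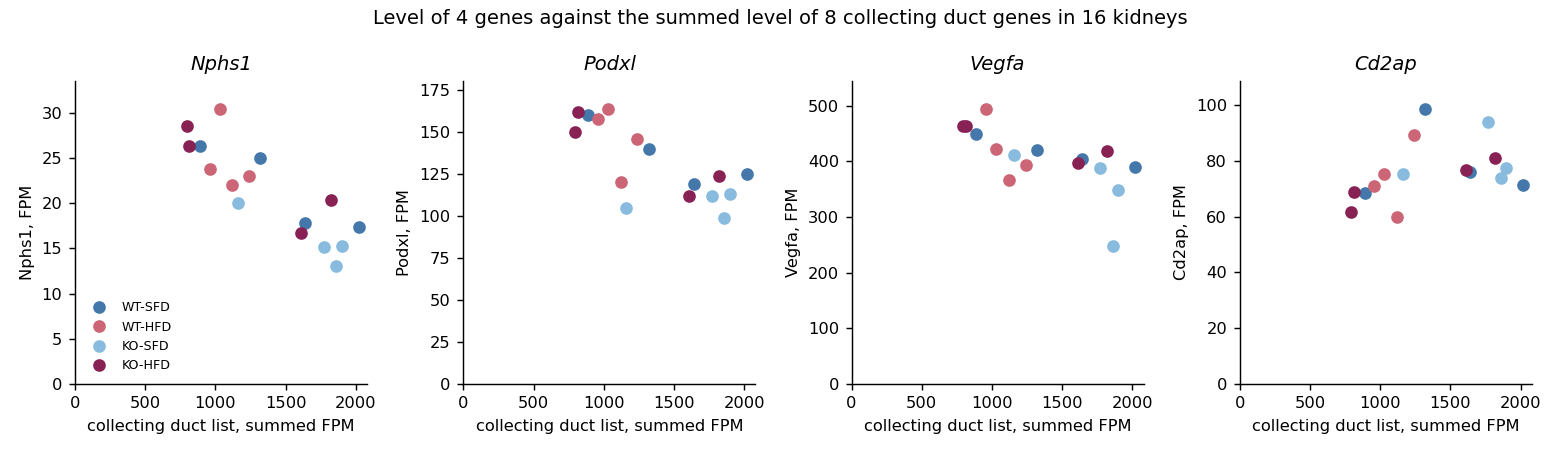
Level of Nphs1, Podxl, Vegfa and Cd2ap (vertical axes, FPM) against the summed level of the 8 collecting duct genes with counts (horizontal axis, FPM), with 1 point per kidney coloured by group. Nphs1 and Podxl are lower where the collecting duct sum is higher, and Cd2ap is not.

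The proximal tubule list (9 of 9 tested, led by the phosphate transporter Slc34a1 with 43.0% to 50.7% of the sum) summed to 16500, 15000, 15400 and 19600 FPM in WT-SFD and 14300, 17700, 17200 and 17200 FPM in WT-HFD. In KO it summed to 13700, 14200, 16000 and 14500 FPM on SFD and to 15400, 14600, 21300 and 18300 FPM on HFD. The highest kidney of the 16, KO-HFD replicate 3, was also among the highest for Nphs1. Within groups r with Nphs1 was 0.75 (rho = 0.74, permutation p = 0.008 for both, adjusted 0.124 and 0.073, r = 0.67 without the 2 farthest kidneys).

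The distal convoluted tubule list (4 of 4 tested, led by the sodium chloride transporter Slc12a3) summed to 938, 1100, 827 and 897 FPM in WT-SFD, 919, 913, 880 and 1030 in WT-HFD, 642, 619, 749 and 711 in KO-SFD and 715, 1010, 1340 and 1060 FPM in KO-HFD. As for Podxl and Synpo, all KO-SFD sums lay below all WT-SFD sums. The thick ascending limb list (5 of 6 tested, Kcnj1 without a count, led by Umod, which encodes uromodulin) summed to 8180, 7330, 8510 and 6570 FPM in WT-SFD, 6740, 6280, 7840 and 5340 in WT-HFD, 9270, 8230, 9180 and 8510 in KO-SFD and 7190, 6930, 4040 and 5530 FPM in KO-HFD. Here the KO-SFD kidneys were higher than all KO-HFD kidneys.

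Single tubule genes passed the adjusted limit where the podocyte genes did not. The glucose transporter Slc5a2 rose on HFD in WT (1.20 ± 0.21, SE) and in KO (1.54 ± 0.21; edgeR adjusted p = 0.00568 and 0.000625). In KO the lactate transporter Slc5a12 (1.13 ± 0.26), the organic anion transporter Slc22a8 (1.44 ± 0.18), Slc12a3 (0.71 ± 0.14) and Pvalb (1.57 ± 0.25), which encodes a calcium-binding protein of the distal convoluted tubule, rose as well (edgeR adjusted p = 0.0266, 0.000433, 0.0127 and 0.00226). These were single members of mixed lists: for HFD in WT 3 of the 9 proximal tubule genes were above 0 and 6 below, with 7 and 2 in KO, and of the 4 distal convoluted tubule genes 2 were above 0 in WT and 3 in KO. Averaged over genotypes Umod fell by 0.41 on the log2 scale (SE 0.11, edgeR adjusted p = 0.0494). Of the other defining markers, Lrp2 had a median of 1410, Slc12a1 of 1250 and Aqp2 of 763 FPM, and none was called.

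Cells of the glomerular tuft and of the vessels were read in the same way. The endothelium list (8 of 10 tested, Cdh5 and Esam in stretches where no gene had a count) averaged 384 ± 40.1 FPM (SD, n = 4) in WT-SFD, 386 ± 38.8 in WT-HFD, 392 ± 57.3 in KO-SFD and 390 ± 39.1 FPM in KO-HFD, and its defining marker Pecam1 ran from 50.3 to 85.0 FPM. The list of mesangium and smooth muscle (9 of 10 tested, Tagln without a count) averaged 245 ± 54.5, 234 ± 26.9, 244 ± 20.4 and 223 ± 14.6 FPM in the same order, with Ren1 as its most abundant gene and with medians of 33.4 FPM for Pdgfrb, 11.1 for Itga8 and 19.2 for Myh11. The median log2 fold change of the mesangium and smooth muscle list was -0.23 for HFD in KO and 0.18 for KO against WT on SFD, opposite in sign to the medians of the 8 genes, and that of the endothelium list was -0.01 and -0.00. The part of these cells in the podocyte values was not tested. Of the leucocyte genes Ptprc ran from 4.91 to 30.5, Adgre1 from 3.63 to 8.47 and Lyz2 from 24.2 to 123 FPM. Of the adipocyte genes Adipoq ran from 1.06 to 31.7 and Fabp4 from 49.5 to 260 FPM. The leucocyte list (7 of 8 tested) had a median log2 fold change of 0.41 for HFD in WT and 0.04 in KO. In WT 7 of its values were above 0 and 0 below, and the part of leucocytes in the podocyte values was not tested. The adipocyte list, led by Fabp4, summed to 57.5, 164, 63.0 and 134 FPM in WT-SFD, 119, 102, 73.0 and 80.2 in WT-HFD, 280, 87.5, 57.1 and 404 in KO-SFD and 159, 110, 123 and 57.2 FPM in KO-HFD. KO-SFD replicates 1 and 4 had the highest sums, and the part of fat in the podocyte values was not tested. In the endothelium, mesangium, leucocyte, adipocyte, fibroblast, parietal epithelium and kidney injury lists 0 genes were called in any of the 7 comparisons.

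Of the wider podocyte lists, 1 gene passed the adjusted limit, Magi2, which encodes a scaffold protein of the slit diaphragm. It stood at 6.02, 4.65, 5.65 and 7.13 FPM in WT-SFD and at 14.1, 9.80, 12.5 and 11.5 FPM in WT-HFD, and at 6.22, 4.85, 6.90 and 6.55 FPM in KO-SFD and 7.11, 11.1, 12.0 and 13.2 FPM in KO-HFD. All HFD kidneys lay above all SFD kidneys of the same genotype. Magi2 rose on HFD by 1.03 ± 0.19 (log2, SE) in WT and by 0.82 ± 0.19 in KO (edgeR adjusted p = 0.0101 and 0.0278), and the difference between these effects was -0.20 ± 0.27 (edgeR adjusted p = 1.0). KO against WT on SFD gave 0.06 ± 0.19. Magi2 was thus called on HFD in WT mice, in which Nphs1, Podxl and Synpo gave 0.20, 0.11 and -0.00.

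Of the 8 slit diaphragm genes tested beside the 8 chosen here, Magi2 was the only one called, with a list median of 0.04 for HFD in WT and 0.21 in KO. Of 10 genes of the podocyte cytoskeleton, 5 transcription factors, 12 surface and secreted proteins and 9 components of the glomerular basement membrane, 0 were called in any comparison. The transcription factor list had a median of 0.39 for HFD in KO, with 4 of 5 values above 0 and 1 below. The medians for HFD in KO were 0.03 for the cytoskeleton, 0.19 for surface and secreted proteins and 0.04 for the basement membrane, beside -0.00 for all genes.

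Around Vegfa, 1 of 9 tested ligands and receptors passed. Angpt1, which encodes the ligand that stabilises vessels through the receptor Tek, stood at 6.61, 5.91, 6.41 and 7.93 FPM in WT-SFD, at 9.30, 7.19, 8.30 and 8.89 in WT-HFD, at 5.01, 5.77, 5.37 and 6.06 in KO-SFD and at 6.18, 8.0, 8.55 and 10.5 FPM in KO-HFD. It rose by 0.45 ± 0.11 (log2, SE) averaged over genotypes (edgeR adjusted p = 0.0248), and all KO-HFD kidneys lay above all KO-SFD kidneys. The receptors Kdr and Flt1 gave 0.45 ± 0.21 and 0.25 ± 0.18 for HFD in KO and 0.17 ± 0.21 and 0.15 ± 0.18 in WT, and neither was called. Of 10 regulators of Vegfa, such as Hif1a, Epas1 and Vhl, and of 12 targets of hypoxia-inducible factor, 0 were called. Their medians were -0.00 and -0.03 for HFD in KO, and 0.04 and -0.17 for HFD in WT, where 4 targets were above 0 and 8 below. The targets, led by Ndrg1, summed to means of 3610 ± 566 FPM (SD, n = 4) in WT-SFD and 2710 ± 334 in WT-HFD. In KO these were 2580 ± 443 on SFD and 2760 ± 684 FPM on HFD. For KO against WT on SFD the median of the targets was 0.05.

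The aortae show which of the 8 genes a tissue without glomeruli holds. Nphs1 had 2 counts in all 14 aortae together, where the kidneys had a median of 21.2 FPM. Wt1 had a median of 0.294 FPM in the aorta (0 to 4.42) and Ptpro of 1.81 (0.41 to 3.75). The remaining genes were plainly present there. Cd2ap had a median of 76.5 FPM in the aorta and 75.3 in the kidney, Podxl of 69.6 and 124, and Vegfa of 34.8 and 408. Synpo and Plce1 had higher medians in the aorta, 357 and 55.7 FPM, than in the kidney, 61.0 and 4.21. The tissues were sequenced at different sites and scaled separately, so that these levels were not tested.

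**Figure D5:**
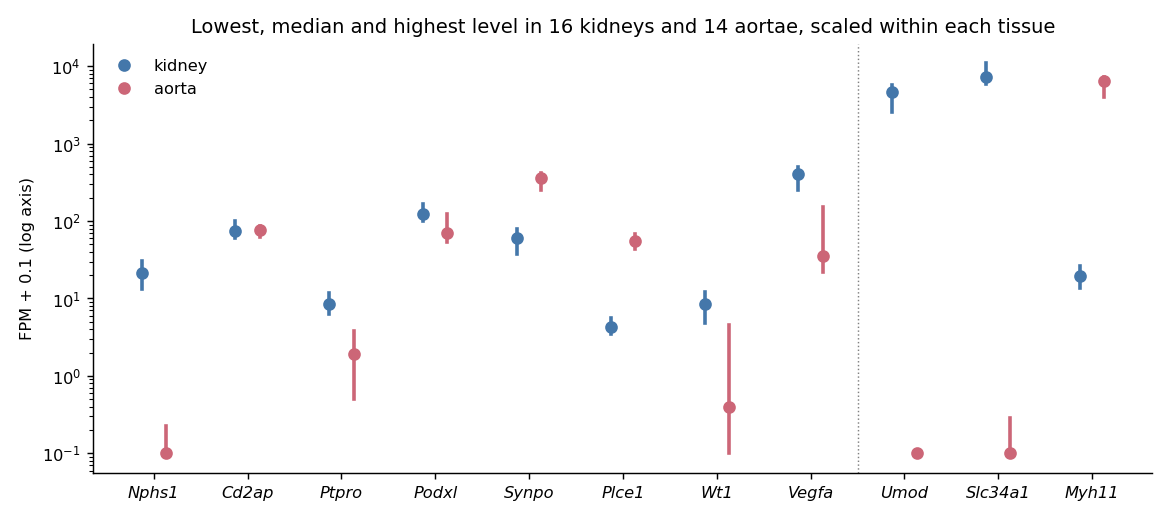
Lowest, median (point) and highest level in 16 kidneys and 14 aortae for the 8 genes and for Umod, Slc34a1 and Myh11, on a log axis of FPM with 0.1 added. Nphs1 is near 0 in the aorta, while Cd2ap lies at the same level in both tissues and Synpo and Plce1 lie higher in the aorta.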

How the data were processed

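mRNA of 16 kidneys and 14 aortae was sequenced, 1 library per mouse and tissue, from 27 mice of which 3 gave both. Kidney reads were trimmed by the sequencing company and aorta reads with cutadapt. Both were then mapped to the mouse genome GRCm38/mm10 (Tophat2) and assigned to genes (featureCounts) by the authors, and the deposited values are raw counts. The strand setting is not given in the sources used here. All columns were used, by the genotype and diet in the labels. No gene on chromosomes 9, X, Y or the mitochondrial genome had a count, nor did any of the 527 genes placed beyond 97427712 on chromosome 8 in the kidney libraries, so that genes there could not be measured. Of the 120 pairs of kidneys none were copies (smallest chi-square per gene 7.46).

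Counts were fitted in R 4.3.3 with edgeR 4.0.16 (TMM, filterByExpr, glmQLFit and glmQLFTest), all 16 kidneys together with 1 coefficient per group, which left 15034 genes. p values were adjusted over all of them by the Benjamini-Hochberg method, and a named gene was called at 0.05; the study's limit of 0.001 was tried beside it. The median SE of a log2 fold change was 0.167 to 0.168 between 2 groups, and scaling by library totals shifted the median gene by at most 0.02 (log2). Log2 values for correlations had a prior count of 2, and their p values came from 100000 permutations within groups, two-sided (Python 3.11.15, scipy 1.17.1). Alternatives were DESeq2 1.42.0, the exact test of edgeR, factors by RLE, library totals, all genes unfiltered, fits of only the groups compared and leaving out each library, as was a collecting duct covariate added after seeing the data. The script was tested on simulated data. The named genes are the 8, for each list and comparison up to 3 called genes in either direction, lowest p first, the defining cell type markers, and the 5 genes most like Nphs1 and Vegfa. The 8 genes and all lists were chosen with earlier results of these data known. FPM counts cover all exons and cell types of the tissue piece.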

Additional observations from a re-analysis of the deposited data

Results flagged for a closer look

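Each of the 8 genes was looked at within each group of 4 kidneys for a mouse that stands far from the other 3, which chance gives in about 1 in 20 groups, and 2 of 32 sets were picked out. Ptpro was 8.28 FPM in WT-HFD replicate 1, the lowest of its group, where the other 3 kidneys lay between 10.3 and 10.6 FPM. Synpo was 52.0 FPM in KO-HFD replicate 1, the lowest of its group, where the other 3 lay between 67.4 and 69.3 FPM.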

How the results depend on the processing

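The 8 genes were uncalled in each of the 7 comparisons under DESeq2, RLE factors, library totals, no low count filter, an FDR of 0.001 and the collecting duct covariate, and in each of the 4 comparisons of 2 groups under edgeR's exact test and fits of only the groups compared. Over all genes, called for HFD in WT, for HFD in KO and for HFD averaged over genotypes were 137, 346 and 674 by the test reported, 263, 695 and 1101 with DESeq2, 135, 351 and 672 with RLE, 141, 349 and 710 with library totals, 134, 333 and 609 of 23798 without the filter, and 160, 305 and 748 with the covariate. The exact test called 240 and 574 for HFD in WT and in KO, and the fits of only the groups compared 111 and 228. In the other comparisons few genes were called at all. KO against WT gave 2 on SFD, 1 on HFD and 2 averaged over diets by the test reported, and the interaction 0. With DESeq2 these were 26, 1, 15 and 1, so that 0 of 8 says little there. Calls over all genes at an FDR of 0.001 are not given here. With 1 library left out at a time, the count of called genes among the 8 stayed at 0 in most comparisons. For HFD against SFD in KO kidneys and averaged over genotypes it ran from 0 to 1: Ptpro passed without KO-HFD replicate 1. Of 1240 log2 fold changes under the alternatives, 66 had the other sign from the main value, all uncalled in both and all in pairs of gene and comparison whose main value was 0.15 or nearer to 0, and 8 moved by more than 1 SE, all with the covariate. By Spearman's rho 14 of the 28 pairs passed, and by Pearson's r 15. No paired analysis was possible because the kidneys of the 4 groups come from different mice and the labels carry no replicate numbers; those used here follow the order of the samples and only name a kidney. Plce1 had the fewest counts of the 8 genes, 1389 over 16 kidneys.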
